A study of Mus musculus with 8 samples.

Results

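The genes described here, *Spp1*, *Aqp1*, *Cftr*, *Prom1*, *Cd24a*, *Ggt1*, *Sox9* and *Sox4*, are markers of biliary epithelial cells (BECs) or of liver progenitors that are not keratins. They were picked by symbol, with earlier results of these data known, and are 8 of the 23467 genes in the table. RNA was sequenced from livers of B6;129 mixed mouse embryos at E14.5, whose hepatoblasts were grown on collagen (iHB), given 12.5 ng/ml oncostatin M for 5 days to form hepatocytes (iHP), or kept on Matrigel for 14 days to form BECs (iBEC). The 3 control libraries are labelled wild type, and the 5 others are labelled Lats1-/-;Lats2f/fl;Alb-cre (L1L2_Alb). Each culture had 1 control library, iHB had 1 L1L2_Alb library, and iHP and iBEC had 2 each. By this label *Lats1* is null in all cells, whereas *Lats2* is floxed for removal by a Cre that the albumin promoter drives in hepatoblasts and hepatocytes. The question was which markers followed BEC culture, which followed the genotype, and which fell.

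Bile ducts and hepatocytes both arise from hepatoblasts, the bipotent progenitors of the fetal liver. Cells on the biliary path take up SOX9 and SOX4, secrete osteopontin, and later carry the water and chloride channels with which ducts adjust bile. Several of these proteins also mark progenitors that appear in injured liver, so one gene can stand for either state. LATS1 and LATS2 are the Hippo pathway kinases that restrain YAP and TAZ, coactivators that bind DNA through TEAD factors.

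*Spp1* and *Aqp1* were the markers that followed BEC culture, and *Spp1* and *Sox4* were those that followed genotype, both lower in libraries labelled L1L2_Alb. *Spp1* was thus higher with the culture and lower with the genotype. Its genotype call held under only 6 of 13 other settings, and that of *Sox4* under 11 of 13. *Ggt1* had its lowest level in the control iBEC library, but its culture difference did not pass the test. *Sox9*, *Cd24a* and *Prom1* passed neither rule over the 8 libraries, and *Cftr* was too low to be tested in the reported fit.

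Levels are RPKM, reads scaled to the length of the gene and the size of the library, and differences are on the log2(RPKM + 1) scale, which understates changes of genes near 1 RPKM. The libraries held 18436865 to 33229075 reads, recovered from the steps in the values of short genes. Of the 23467 genes, 13421 averaged 1 RPKM or more and were tested, with 7 of the 8 markers among them. Each adjusted p is two-sided, from limma with Benjamini-Hochberg adjustment over all 13421 genes, and a call is an adjusted p under 0.05. Nothing states that the libraries of a condition came from separate embryos, so p measures only the spread between these libraries. The labels name alleles, and RNA of the targeted genes was above control in most libraries labelled L1L2_Alb. A level over the whole gene does not show whether part of it was removed, which was not tested. *Lats1* was 7.12 to 22.7 RPKM in the libraries labelled L1L2_Alb, above the control library of its culture in 4 of 5, against 5.38 to 11.2 RPKM in control libraries. *Lats2* was 10.9 to 27.6 RPKM, above control in 5 of 5, against 6.90 to 10.1 RPKM. The YAP target *Ctgf* was above the control library of its culture in 5 of 5 libraries, as was *Cyr61*.

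The cells labelled iBEC were checked against marker lists, because the name of a culture is not its content. Over 10 hepatocyte markers, the summed level was 31467 RPKM in the control iBEC library, against 10500 RPKM in control iHB and 20311 RPKM in control iHP. Over 13 other biliary genes, *Krt7*, *Krt19* and *Tspan8* being the highest by mean level, the sum was 229 RPKM in control iBEC, the lowest of the 8 libraries, and 772 and 1029 RPKM in control iHP and iHB. In L1L2_Alb libraries the hepatocyte sum was 16885 and 15540 RPKM in iBEC against 8880 to 11618 RPKM in iHB and iHP. *Apoa1* of that list went the other way there, at 4170 and 2889 RPKM in iBEC against 6225 to 8670 RPKM. Within each genotype the cultures labelled BEC thus held more hepatocyte marker RNA by sum and less *Krt7* RNA than the others. Below, "iBEC" names the culture and not a cell type. In bulk RNA, fewer cells of a type and less RNA per cell cannot be told apart.

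The promoters of the markers with a call are shown first, as the DNA next to the genes that followed culture or genotype. RefSeq's table for GRCm38.p6 held 6 of the 8 genes. The 250 bases before the first listed start are given 5′ to 3′ on the gene's strand, for *Spp1* at chr5:104434861-104435110 (plus strand), for *Aqp1* at chr6:55336049-55336298 (plus strand) and for *Sox4* at chr13:28953700-28953949 (minus strand), with capitals for a motif match.
Spp1: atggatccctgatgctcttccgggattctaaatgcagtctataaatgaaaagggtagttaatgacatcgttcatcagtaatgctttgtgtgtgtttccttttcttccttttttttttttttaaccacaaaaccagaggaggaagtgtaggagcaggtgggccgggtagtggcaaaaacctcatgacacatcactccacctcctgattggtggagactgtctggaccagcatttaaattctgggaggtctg
Aqp1: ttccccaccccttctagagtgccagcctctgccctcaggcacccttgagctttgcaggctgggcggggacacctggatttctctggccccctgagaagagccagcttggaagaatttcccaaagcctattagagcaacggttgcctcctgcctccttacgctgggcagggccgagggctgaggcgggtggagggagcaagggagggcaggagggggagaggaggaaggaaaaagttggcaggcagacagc
Sox4: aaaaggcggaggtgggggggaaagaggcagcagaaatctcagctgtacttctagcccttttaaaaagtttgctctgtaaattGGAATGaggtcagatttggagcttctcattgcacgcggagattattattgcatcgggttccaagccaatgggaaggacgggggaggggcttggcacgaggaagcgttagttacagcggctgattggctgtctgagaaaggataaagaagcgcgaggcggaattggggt
Motifs were searched as exact letters on both strands. The TEAD letters GGAATG stood in 1 of the 6 marker promoters, *Sox4*, with the first base 168 bases before the start, and in 12.6% of all 27025 promoters of that length. The SOX letters ATTGTT and the RBPJ letters GTGGGAA, the latter for the DNA-binding partner of NOTCH, were in none of the 6 windows and in 9.65% and 5.41% of all promoters. A match is a description of letters and not a bound site.

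*Spp1* encodes osteopontin, a secreted phosphoprotein that binds integrins and CD44 and is made by ducts, progenitors and macrophages. In control libraries it was 1706 RPKM in iHB, 3188 RPKM in iHP and 23271 RPKM in iBEC, where it ranked first of all genes. In libraries labelled L1L2_Alb it was 428 RPKM in iHB, 1068 and 2045 RPKM in iHP, and 6027 and 10760 RPKM in iBEC. All 3 iBEC libraries were above all 5 others, and within each culture every L1L2_Alb library was below the control library. iBEC exceeded iHB by 3.99 on the log2 scale (SE 0.419, limma adjusted p = 0.00193) and iHP by 2.59 (SE 0.371, adjusted p = 0.0126). The L1L2_Alb difference was -1.50 (SE 0.336, 95% interval -2.27 to -0.73, adjusted p = 0.0306) and had this direction in 5 of 5 libraries. Its size was -1.99 in iHB, -1.11 ± 0.662 in iHP (SD, n = 2) and -1.53 ± 0.591 in iBEC (SD, n = 2). The ratio of iBEC to iHB was 13.6 between control libraries and 14.1 to 25.1 between L1L2_Alb libraries. Of the 9 genes for osteopontin receptors, *Itgb1*, *Itga5*, *Itgb5* and *Cd44* were the highest by mean level, and none of these was called by genotype or between cultures. Among the receptor genes, 1 rose with genotype (*Itgb6*, 1.41) and 1 fell in iBEC against iHB (*Itgb6*, -1.72) and 1 against iHP (*Itgb3*, -2.30), with a median of -0.81 for iBEC against iHB beside -0.25 over all genes. Of all genes, 6.2% were called higher by genotype, and 2.78% and 1.67% lower in iBEC against iHB and iHP.

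*Aqp1* encodes the water channel through which ducts and red cells pass water. It was 3.68 RPKM in control iHB, 3.84 RPKM in control iHP and 38.2 RPKM in control iBEC. The libraries labelled L1L2_Alb held 0.884 RPKM in iHB, 0.707 and 0.323 RPKM in iHP, and 39.4 and 25.8 RPKM in iBEC. The 3 iBEC libraries held 1696 to 3504 reads of the gene and stood above every other library, which held 19 to 297 reads. iBEC exceeded iHB by 3.73 (SE 0.381, limma adjusted p = 0.00182) and iHP by 3.97 (SE 0.338, adjusted p = 0.00333), the latter a ratio of 9.94 between control libraries and of 36.4 to 122 between L1L2_Alb libraries. By genotype *Aqp1* was lower in 4 of 5 libraries, with a difference of -1.06 (SE 0.306) that missed the threshold (limma adjusted p = 0.0663) and passed it with upper-quartile scaling (adjusted p = 0.0424) and quantile scaling (adjusted p = 0.0484). That difference was -1.31 in iHB and -1.69 ± 0.260 in iHP (SD, n = 2), and -0.25 ± 0.420 in iBEC (SD, n = 2), where the groups overlapped. Of the 10 other aquaporin genes, 3 were expressed enough to be tested, and none was called between cultures. *Aqp8*, the canalicular water channel of hepatocytes, was 2.01 to 23.9 RPKM with no call. *Aqp9*, the hepatocyte glycerol channel, fell with genotype by 1.13 (limma adjusted p = 0.0250).

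*Cftr*, the apical chloride channel of ducts that answers secretin, was close to absent. Its reads numbered 24 and 18 in control and L1L2_Alb iHB. They numbered 7 in control iHP and 1 and 2 in the L1L2_Alb iHP libraries, which is under the floor of 3 reads. In iBEC they were 6 in the control and 18 and 31 in the libraries labelled L1L2_Alb. Both L1L2_Alb iBEC libraries were thus above both L1L2_Alb iHP libraries, and control iHB was above the other control libraries. The highest of these levels was 0.206 RPKM, and the gene entered only the fits with no filter on low values, not the reported fit. Of 13 other genes of ductal ion and fluid transport, 10 were tested. Of all genes, 6.2% were called higher by genotype. *Ezr* and *Ano1* rose with genotype by 1.66 and 1.17, *Ezr* fell in iBEC against iHB by 1.23 (a call lost with upper-quartile and quantile scaling, limma adjusted p = 0.138 and 0.0505), and *Slc9a3r1* and *Slc4a2* had no call.

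**Figure D1:**
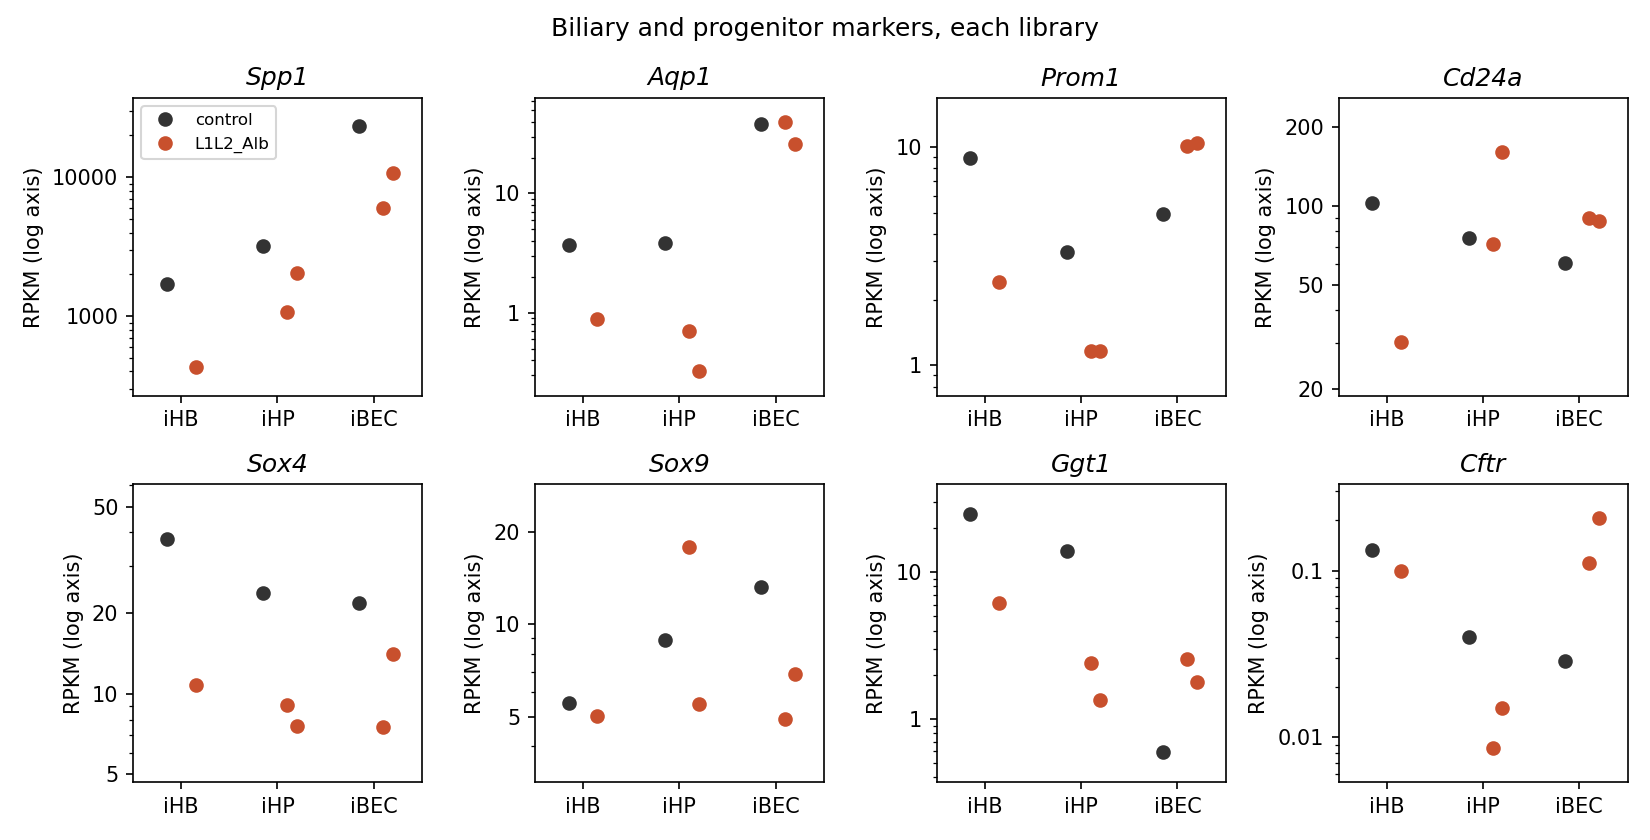
Level of each of the 8 markers in RPKM (vertical log axes, each with its own range) by culture, with 1 point per library, control in black and L1L2_Alb in orange. *Spp1* and *Aqp1* are highest in the 3 iBEC libraries, *Sox4* is lower in every L1L2_Alb library than in the control library beside it, and *Ggt1* is lowest in control iBEC at 0.595 RPKM.

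*Prom1* encodes prominin-1 (CD133), a membrane protein of progenitors and ducts. It was 8.93, 3.32 and 4.96 RPKM in control iHB, iHP and iBEC. The L1L2_Alb libraries had 2.41 RPKM in iHB, 1.16 and 1.17 RPKM in iHP, and 10.1 and 10.5 RPKM in iBEC. The L1L2_Alb libraries were thus below the control in iHB and iHP and above it in iBEC. iBEC exceeded iHP by 1.74 (SE 0.451, limma adjusted p = 0.0726) and iHB by 0.72 (adjusted p = 0.393), so neither was called over the 8 libraries. With upper-quartile or quantile scaling the difference from iHP was called (limma adjusted p = 0.0478 and 0.0477). Between L1L2_Alb libraries alone the rise from iHP to iBEC was 2.38 (SE 0.291, limma adjusted p = 0.0118), with a ratio of 8.62 to 9.01 against 1.49 between control libraries. The genotype difference over all cultures was -0.45 (SE 0.408, adjusted p = 0.545).

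*Cd24a* encodes a small surface glycoprotein of progenitors and ducts, and reads of the gene may be shared with near-identical copies elsewhere in the genome. It was 102.8, 75.4 and 60.6 RPKM in control iHB, iHP and iBEC. With the L1L2_Alb label it was 30.2 RPKM in iHB, 71.4 and 161 RPKM in iHP, and 90.1 and 87.3 RPKM in iBEC. Libraries of all cultures and both genotypes overlapped, and the pair of L1L2_Alb iHP libraries spanned more than the pair in iBEC. The differences were -0.09 by genotype (SE 0.433, limma adjusted p = 0.922), 0.49 for iBEC against iHB (adjusted p = 0.590) and -0.29 for iBEC against iHP. The 95% interval of the genotype difference ran from -1.09 to 0.90, and no call does not show equal levels.

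*Ggt1* encodes a gamma-glutamyltransferase, the surface enzyme that starts glutathione breakdown and is high in fetal liver and ducts. It was 24.8 RPKM in control iHB, 14.0 RPKM in control iHP and 0.595 RPKM in control iBEC, a drop of 41.7-fold and 23.6-fold. Its level in libraries labelled L1L2_Alb was 6.19 RPKM in iHB, 2.39 and 1.35 RPKM in iHP, and 2.54 and 1.78 RPKM in iBEC. Control iBEC was the lowest of all libraries, with 40 reads, and control iHB the highest, with 1428 reads. iBEC was below iHB by a fitted -2.27 (SE 0.714), which missed the threshold (limma adjusted p = 0.109), and between L1L2_Alb libraries iBEC and iHP differed by 0.16. The genotype difference was -1.03 (SE 0.573, limma adjusted p = 0.306), with iHB and iHP libraries below their controls and iBEC libraries above. Of 10 other glutathione genes, 8 were tested: *Gclc*, *Gsr*, *Gss* and *Gclm*, which make or reduce glutathione, had no call, and *Anpep*, a surface aminopeptidase, was called higher in iBEC against iHB and against iHP, by 1.86 in the latter.

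*Sox9* and *Sox4* are transcription factors that act together in the forming duct. *Sox9* was 5.53, 8.87 and 13.3 RPKM in control iHB, iHP and iBEC. The 5 L1L2_Alb libraries gave 5.03 RPKM in iHB, 17.9 and 5.49 RPKM in iHP, and 4.89 and 6.87 RPKM in iBEC. The highest and one of the lowest values of the series came from the pair of L1L2_Alb iHP libraries, with 1371 and 485 reads. No difference was called: -0.36 by genotype (SE 0.385, limma adjusted p = 0.616), 0.53 for iBEC against iHB (adjusted p = 0.504) and -0.29 for iBEC against iHP. In iBEC both L1L2_Alb libraries were below the control, by 1.07 ± 0.295 on average (log2, SD, n = 2).

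*Sox4* was 37.9, 23.7 and 21.8 RPKM in control iHB, iHP and iBEC. L1L2_Alb libraries had 10.8 RPKM in iHB, 9.09 and 7.58 RPKM in iHP, and 7.48 and 14.0 RPKM in iBEC. The highest of the 5 L1L2_Alb libraries lay below the lowest of the 3 control libraries. The difference was -1.35 (SE 0.241, 95% interval -1.90 to -0.80, limma adjusted p = 0.0138), and was -1.72 in iHB, -1.41 ± 0.166 in iHP and -1.01 ± 0.585 in iBEC (SD, n = 2 each). No culture difference was called: -0.36 for iBEC against iHB (95% interval -1.05 to 0.33, limma adjusted p = 0.473) and 0.15 for iBEC against iHP. For iHP against iHB it was -0.51 (95% interval -1.19 to 0.18), and no call does not show equal levels. Of 17 other SOX genes 5 were tested, and *Sox17*, a factor of endoderm and the extrahepatic bile duct, rose with genotype by 2.48 (limma adjusted p = 0.00345). *Sox17* was 0.348 to 0.879 RPKM in the 3 control libraries and 4.57 to 10.3 RPKM in the 5 others. *Sox13* and *Sox5* had no call, and *Sox11* fell in iBEC against iHB by 1.79.

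**Figure D2:**
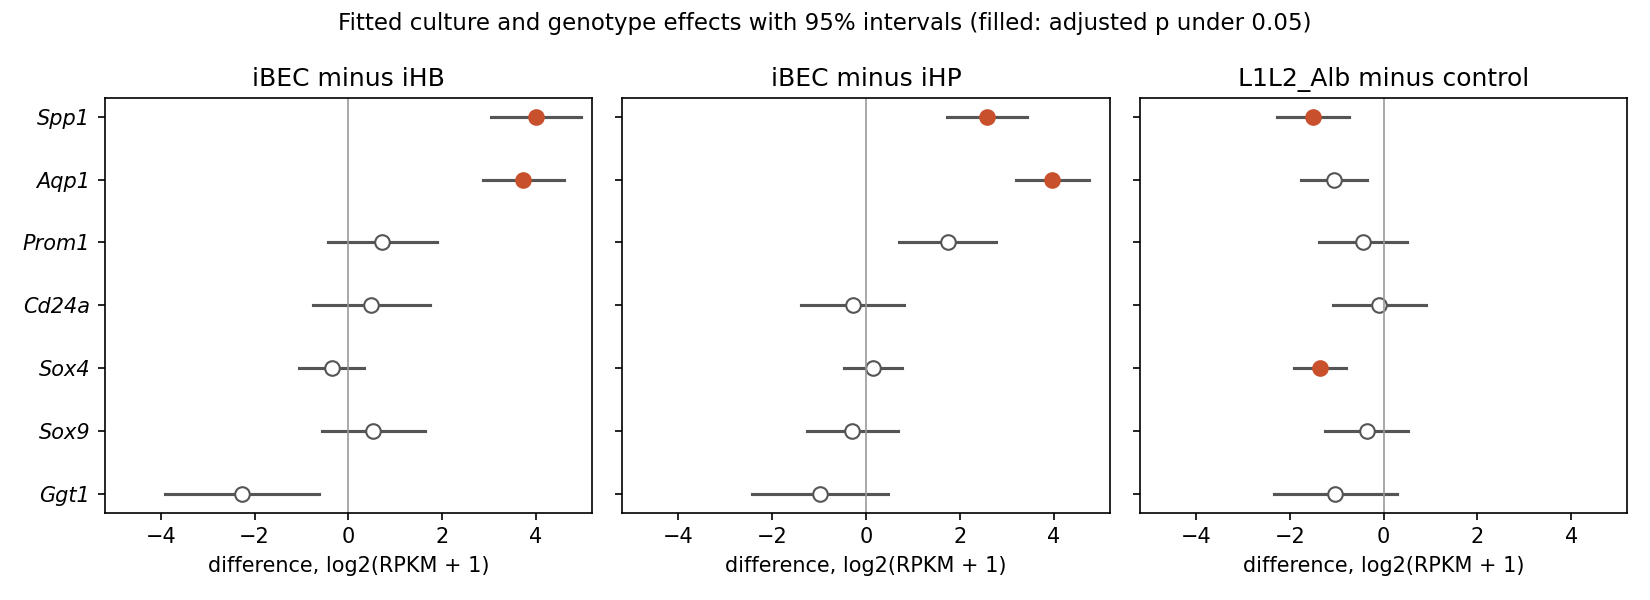
Fitted difference of the 7 tested markers on the log2(RPKM + 1) scale (horizontal axes) with 95% intervals, for iBEC minus iHB, iBEC minus iHP and L1L2_Alb minus control. Filled points passed an adjusted p of 0.05: *Spp1* and *Aqp1* in both culture comparisons, and *Spp1* (-1.50) and *Sox4* (-1.35) in the genotype comparison.

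Among the tested markers, 2 of 7 were called by genotype, both lower, beside 9.57% of all genes (3.37% lower). Over all genes the split of the genotype calls depended on scaling: 832 rose and 452 fell as deposited, and 586 rose and 607 fell with upper-quartile scaling. Between iBEC and iHB, 2 of 7 were called, both higher, beside 5.72% (2.94% higher). For iBEC against iHP the count was again 2 of 7 higher, beside 4.12% (2.45% higher). None of the 7 was called between iHP and iHB, where limma called 0% of all genes, 0 of 13421, and 1158 genes had an unadjusted p under 0.05. *Spp1* was the 1 marker of these, with a difference of 1.41 (adjusted p = 0.422). Between L1L2_Alb iBEC and L1L2_Alb iHP, with 2 residual degrees of freedom, *Aqp1* (4.45, adjusted p = 0.00420) and *Prom1* were called higher, 2 of 7 beside 3.67% (3.16% higher), and *Spp1* was not (2.45, adjusted p = 0.0669). These comparisons share libraries, so their counts are not separate evidence.

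Whether the genotype difference changed with culture was tested by the moderated F test of limma over the 6 conditions. It called 0% of genes, 0 of 13421, with 733 at an unadjusted p under 0.05, and 3 of the 7 markers had such a p: *Ggt1* (F = 19.1, adjusted p = 0.359), *Prom1* (F = 12.1, adjusted p = 0.489) and *Cd24a* (F = 5.47, adjusted p = 0.814). *Ggt1* differed from control by -1.84 in iHB, -2.41 ± 0.375 in iHP and 0.98 ± 0.246 in iBEC (SD, n = 2). *Prom1* differed by -1.54 in iHB and 0.92 ± 0.0360 in iBEC, with both iHP libraries below their control. Each sign rests on the 1 control library of its culture, and after adjustment no marker passed.

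**Figure D3:**
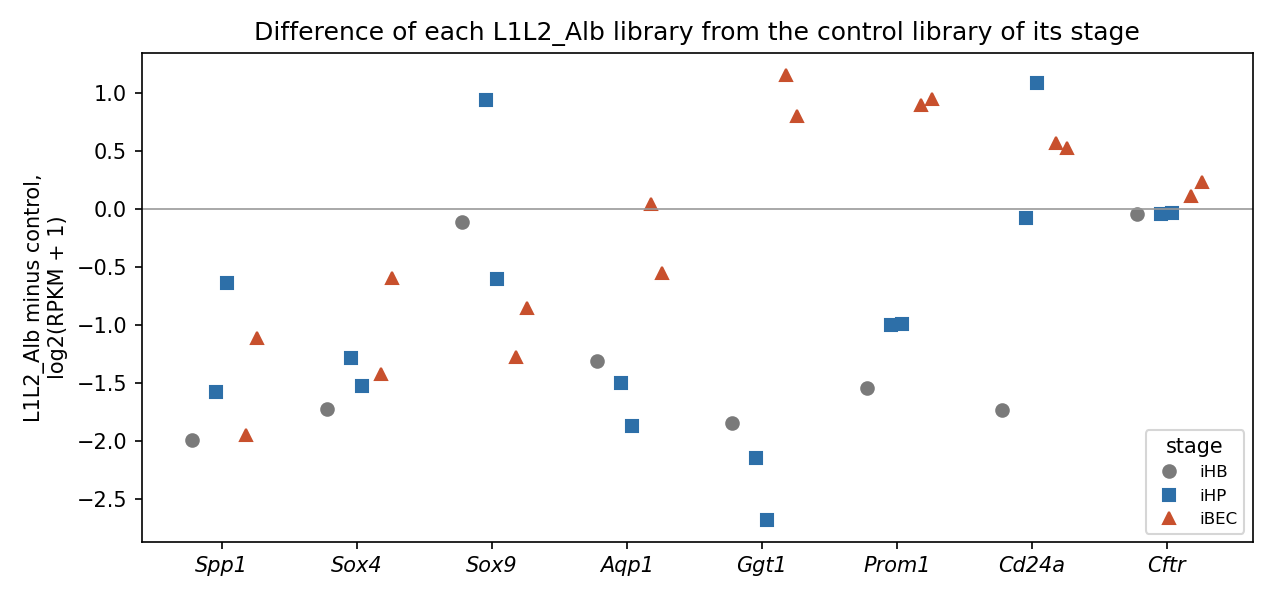
Difference of each L1L2_Alb library from the control library of its culture on the log2(RPKM + 1) scale (vertical axis) for the 8 markers, with circles for iHB, squares for iHP and triangles for iBEC. *Spp1* and *Sox4* lie below 0 in 5 of 5 libraries, whereas *Ggt1* and *Prom1* lie below 0 in iHB and iHP and above 0 in iBEC.

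Other genes of the same kinds were counted to set the markers in place. Of 13 other biliary genes 12 were tested: 3 rose with genotype (*Krt7* 2.17, *Tspan8* 2.51, *Krt19* 1.31) and 1 fell (*Cdh6* -1.13). Their median was 0.23 beside 0.06 over all genes, of which 6.2% were called higher and 3.37% lower by genotype. Over the 8 libraries none of the 12 was called higher in iBEC against iHB or iHP, beside only 2.94% and 2.45% of all genes. *Krt7*, *Tspan8* and *Cdh6* fell against both iHB and iHP, *Krt7* by 2.13 and 1.88, beside 2.78% and 1.67% of all genes called lower. *Muc1*, an apical mucin of ducts, was 2.79 RPKM in control iBEC and 12.9 and 13.4 RPKM in L1L2_Alb iBEC, above the 0.265 to 2.13 RPKM of the other libraries. It missed the threshold against iHB (2.46, limma adjusted p = 0.0550) and iHP (1.99, adjusted p = 0.0804) and was called between L1L2_Alb iBEC and L1L2_Alb iHP (2.84, adjusted p = 0.0118). *Bicc1*, a gene of duct and kidney tubules, had no call. *Spp1* and *Aqp1* thus moved opposite to *Krt7*, the keratin of mature ducts, both between cultures and, for *Spp1*, between genotypes. Of 11 other progenitor genes 9 were tested: *Lgals3* rose with genotype by 1.04, *Afp* and *Tnfrsf12a*, the TWEAK receptor, fell in iBEC against iHB by 1.78 and 1.19, and *Icam1* had no call. The *Tnfrsf12a* call was lost with upper-quartile and quantile scaling (limma adjusted p = 0.144 and 0.0881). That of *Lgals3* was lost with upper-quartile scaling (adjusted p = 0.0719) and kept with quantile scaling (adjusted p = 0.0374).

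Some markers of other cell types also differed between cultures or genotypes, the called hepatocyte markers in the same directions as *Spp1*. Of 10 hepatocyte markers, 6 were called lower by genotype (*Alb* -1.71, *Serpina1a* -2.42, *Ahsg* -2.59). Their list had a median of -1.83 beside 0.06 over all genes, of which 3.37% were called lower. In iBEC against iHB 5 of the 10 were called higher (*Alb* 2.37, *Ahsg* 3.59). There the median was 2.70 beside -0.25 over all genes, of which 2.94% were called higher. *Apoa1*, of the same list, had no call. With quantile scaling the genotype calls of *Alb* and *Serpina1a* were lost (limma adjusted p = 0.107 and 0.106). The call of *Alb* in iBEC against iHB was lost as well (adjusted p = 0.161), and the directions were kept. Macrophages also make osteopontin: the 9 macrophage markers in the table, headed by *Lyz2*, *C1qb*, *C1qa* and *Cd68*, summed to 1647 RPKM in control iBEC, 1724 RPKM in control iHP and 2500 RPKM in control iHB, while *Spp1* was highest in control iBEC. In the L1L2_Alb libraries the macrophage sums were 3262 and 3720 RPKM in iBEC against 834 to 2328 RPKM in iHB and iHP. *Emr1*, which marks macrophages, was called higher in iBEC against iHP (1.46), and *Clec4f*, which marks Kupffer cells, was at 0 in control iHB and control iHP and at 2.24 RPKM or below elsewhere. The part of hepatocyte and macrophage RNA in the *Spp1* result was not tested.

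Red cells and endothelium also carry *Aqp1*. The 11 erythroid genes summed to 5.85, 2.97 and 7.18 RPKM in iBEC against 13.0 to 252 RPKM elsewhere. In iBEC against iHB 4 of 4 tested erythroid genes (all globins, of which *Hba-a1* and *Hba-a2* are near-identical) fell, beside 2.78% of all genes. Of these calls, that of *Hbb-b2* was lost with upper-quartile scaling (limma adjusted p = 0.0527). The 8 endothelial markers summed to at most 32.6 RPKM in iBEC, and to 4.85 to 19.8 RPKM in the other libraries, all below iBEC. *Lyve1*, at 17.2 to 22.1 RPKM, made up most of that and was called higher in iBEC (2.47 against iHB and 2.24 against iHP), whereas *Pecam1* was 0.177 to 0.698 RPKM and *Cdh5* 0.337 to 0.476 RPKM in iBEC, with *Eng* uncalled. Of 10 mesenchymal markers none was called by genotype (median -1.08), and in iBEC against iHB *Pdgfra* rose by 1.73 and *Acta2* fell by 2.27, the latter a call lost with upper-quartile and quantile scaling (limma adjusted p = 0.0736 and 0.0523). Against iHP, *Lum* was called higher in iBEC and kept the call with both scalings (3.99 and 3.88), with a list median of 0.97. Between L1L2_Alb iBEC and L1L2_Alb iHP 2 of the 10 were called higher, beside 3.16% of all genes, with a list median of 1.61. The collagen genes *Col1a1*, *Col1a2* and *Col3a1* had no call by genotype or between cultures over the 8 libraries. The part of erythroid and endothelial RNA in the *Aqp1* result was not tested.

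**Figure D4:**
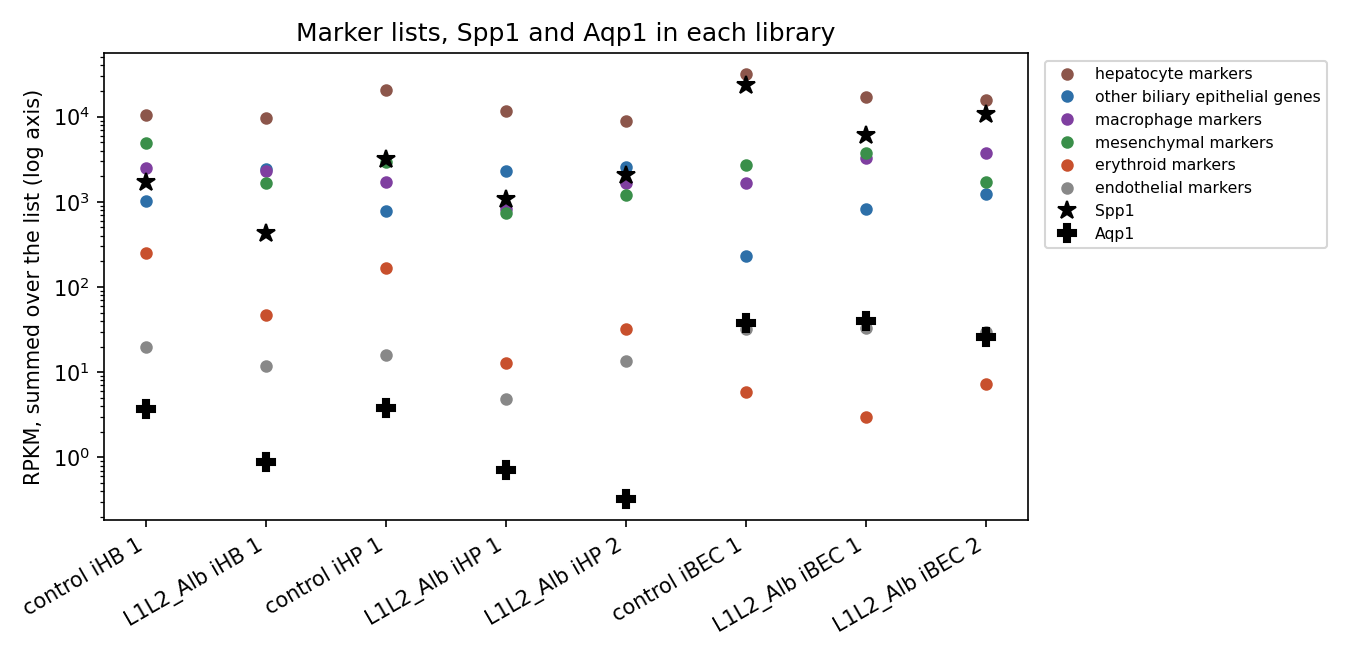
Summed level in RPKM (vertical log axis) of 6 marker lists in each of the 8 libraries, with *Spp1* (stars) and *Aqp1* (crosses). Hepatocyte markers are highest in control iBEC (31467 RPKM), where *Spp1* is highest too, and other biliary genes are lowest there (229 RPKM).

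For each tested marker the genes with the most similar pattern were taken from 9738 genes that averaged 5 RPKM or more, by Pearson's r over the 8 libraries on the log2 scale, as a description in which all points share libraries. *Ier5l* (r = 0.980), *Cdh17* (r = 0.977), an intestinal and liver cadherin, and *Dhcr7* (r = 0.969), the last enzyme of cholesterol synthesis, were nearest to *Spp1*. *Cyp17a1* (r = 0.988), a steroid hydroxylase, *Apoa4* (r = 0.982) and *Gm6484* (r = 0.982) were nearest to *Aqp1*. *Pccb* (r = 0.990), *Sephs1* and *Ipo8* were nearest to *Sox4*, and *Hook1* (r = 0.941), *Ptpn2* and *Lbp* to *Sox9*. *Sema4c* (r = 0.992), *Elmo2* and *Ifi204* were nearest to *Prom1*, *Akap13* (r = 0.993), *Rhbdd3* and *Wdfy3* to *Ggt1*, and *Ppp2r5c* (r = 0.970), *Anxa4* and *Msh6* to *Cd24a*. *Apoa4* (4.91), *Cyp17a1*, *Cdh17*, *Dhcr7*, *Gm6484* and *Ier5l* (1.44) were also called higher in iBEC against iHB. They were picked for likeness to *Spp1* or *Aqp1* over the same libraries, so these calls are not separate evidence.

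The culture calls of *Spp1* and *Aqp1* against iHB held under 12 of 12 other settings, as did that of *Aqp1* against iHP. The call of *Spp1* against iHP held under 9 of 12 and was lost with no filter on low values (limma adjusted p = 0.0710), without L1L2_Alb iBEC replicate 2 (adjusted p = 0.0520) and with L1L2_Alb libraries alone (adjusted p = 0.0597). The genotype call of *Sox4* held under 11 of 13, being lost without the iHB libraries (-1.21, adjusted p = 0.0893) and without the iHP libraries (-1.32, adjusted p = 0.125). The genotype call of *Spp1* held under 6 of 13, with a difference of -1.73 to -1.09 and a limma adjusted p of 0.0203 to 0.166, and was lost with quantile scaling, with no filter, without L1L2_Alb iHP replicate 1 or L1L2_Alb iBEC replicate 1, and without any 1 of the 3 cultures. An alternative chosen after seeing the data left out the control iBEC library, so that only L1L2_Alb libraries stood for iBEC. There *Prom1* was called higher in iBEC against both iHB (1.57, limma adjusted p = 0.0220) and iHP (2.46, adjusted p = 0.00382). The library left out lay below control iHB (4.96 against 8.93 RPKM), so this is not a culture difference shown in both genotypes.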

How the data were processed

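RNA was taken from 8 libraries of cultured E14.5 liver cells, prepared with an Illumina TruSeq kit. The deposited table gives RPKM, or its equivalent per fragment, for each gene in each library. The submitters' processing notes name Bowtie 0.12.2 and mm8, with no role stated, and the counting method is not given in the sources used here. The unit was inferred from the values: short genes changed in whole steps, which gave the reads per library, and whole reads (within 0.01) for 6 of the 8 markers but not for *Spp1* and *Prom1*. Columns of no sample numbered 0. Of 23471 entries, 4 of 2 repeated symbols were left out.

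Values were changed to log2(RPKM + 1), and limma 3.58.1 (R 4.3.3) was run on genes averaging 1 RPKM or more (eBayes with trend, with culture and genotype as terms), with Benjamini-Hochberg adjustment and a threshold of 0.05. The genotype by culture test and the comparison of L1L2_Alb iBEC with L1L2_Alb iHP used the 6 conditions. A marker followed BEC culture if iBEC passed above both iHB and iHP. All 8 markers were named, the 3 most similar genes of each, and up to 4 genes of each list with the highest means. Further list genes that passed were named after their values were seen. The markers and lists were chosen with earlier results of these data known. No list was given a test of its own, and an item left out of the lists is not reported here. The fits were tested on simulated data. Promoters are from RefSeq (GRCm38.p6), a build other than that of the notes, so its positions were not joined to the values. Alternatives were another pseudocount (0.1), filters (none, or a mean of 5 RPKM), upper-quartile and quantile scaling, and leaving out libraries or cultures. Python 3.11.15 was used for tables and figures.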

Additional observations from a re-analysis of the deposited data

Results flagged for a closer look

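For 4 of the 8 markers every L1L2_Alb library lay on one side of its control library in one culture and on the other side in another. The mean difference from control in iBEC less that in iHB was 2.28 for *Cd24a*, 2.46 for *Prom1*, 0.214 for *Cftr* and 2.82 for *Ggt1*, on the log2(RPKM + 1) scale. In iBEC less iHP it was 1.92 for *Prom1*, 0.209 for *Cftr* and 3.39 for *Ggt1*. The test of the difference over all 3 cultures, limma's moderated F with Benjamini-Hochberg adjustment, gave an adjusted p of 0.359 for *Ggt1*, 0.489 for *Prom1* and 0.814 for *Cd24a*. *Cftr* was not tested in the reported fit, and its values rest on 1 to 31 reads per library. Each of these differences uses the 1 control library of its culture.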

How the results depend on the processing

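The counts of markers called changed with the settings as follows. By genotype, 2 were called in the reported fit and 1 with no filter on low values, beside 1284 of 13421 and 686 of 20025 genes. Without the iHB libraries 0 were called, and 0 without the iHP libraries, beside 326 and 132 of 13421 genes. Without the iBEC libraries 4 were called, beside 1396 of 13421 genes. The 4 were *Sox4*, *Aqp1* (-1.53), *Ggt1* (-2.17) and *Prom1* (-1.23). When each replicate was left out, 1 to 2 were called by genotype, beside 793 to 1227 of 13421 genes. For iBEC against iHP, 2 became 1 with no filter and 1 to 2 when each replicate was left out. With no filter, 211 of 20025 genes were called in that comparison, and 0 of 20025 between L1L2_Alb iBEC and L1L2_Alb iHP. Between L1L2_Alb iBEC and L1L2_Alb iHP, 2 became 0 with no filter and 0 to 1 when each replicate was left out. Of the marker differences recomputed under the alternatives, 377 kept direction and side of the threshold, 15 gained a call, 20 lost one and 15 turned direction.

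Those that turned were not called in the reported fit. When each replicate was left out, *Cd24a* ran from -0.33 to 0.022 by genotype, from -0.50 to 0.14 for iBEC against iHP and from -0.85 to 0.31 between L1L2_Alb iBEC and iHP. *Sox4* ran from -0.14 to 0.31 and from -0.13 to 0.69 in the last 2 comparisons, *Sox9* from -0.62 to 0.23 and from -1.48 to 0.069, and *Ggt1* from -0.11 to 0.42 between L1L2_Alb iBEC and iHP. By genotype *Cd24a* was 0.52 without the iHB libraries and *Sox9* 0.046 without the iBEC libraries. With the control iBEC library left out, an alternative chosen after seeing the data, *Cd24a* was 0.047 and *Ggt1* 0.074 for iBEC against iHP. With L1L2_Alb libraries alone *Ggt1* was 0.16 there, and under quantile scaling -0.18 between L1L2_Alb iBEC and iHP. The cause was not tested.

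Genes called numbered 132 to 1396 by genotype, 334 to 1739 for iBEC against iHB, 156 to 987 for iBEC against iHP, 0 to 29 for iHP against iHB and 0 to 911 between L1L2_Alb iBEC and iHP. Upper-quartile scaling changed the genotype calls from 832 higher and 452 lower to 586 and 607 (687 and 607 with quantile scaling), those of iBEC against iHB from 395 and 373 to 490 and 184 (496 and 264), and those of iBEC against iHP from 329 and 224 to 453 and 195. It moved the median of all genes from -0.25 to -0.016 for iBEC against iHB and from -0.15 to 0.0085 for iHP against iHB. Of 52 calls of listed genes by genotype or between cultures, 52 kept their sign under both scalings, and 47 and 44 remained calls with upper-quartile and quantile scaling. With a replicate block on the 4 L1L2_Alb iHP and iBEC libraries, 3 markers were called (*Spp1* joined, limma adjusted p = 0.0150) and 911 genes. The labels do not say whether the numbers pair the libraries. Replicate 1 minus replicate 2 in iHP and in iBEC had a correlation of -0.02 over 13421 genes. A single difference per culture cannot decide whether they were paired. *Spp1* lost its genotype call without L1L2_Alb iHP replicate 1 (adjusted p = 0.0534), without L1L2_Alb iBEC replicate 1 (0.0532), with quantile scaling (0.0696), with no filter (0.12) and without the iHB (0.166), iHP (0.0991) or iBEC libraries (0.0822), and its iBEC against iHP call with no filter (adjusted p = 0.0710), without iBEC replicate 2 (0.0520) and with L1L2_Alb libraries alone (0.0597).

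With 1 control library per culture, a culture difference in control cells and a feature of that library cannot be told apart. Depth limits *Cftr*, at 1 to 31 reads.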
